A study of Mus musculus with 6 samples.

Results

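The mitochondrial genome of the mouse carries 13 protein-coding genes, and 10 of them are described here: the complex I genes mt-Nd1, mt-Nd2, mt-Nd4, mt-Nd5 and mt-Nd6, the complex III gene mt-Cytb, the complex IV genes mt-Co1, mt-Co2 and mt-Co3, and the complex V gene mt-Atp6. They were chosen by gene name, and the rule used no measured value. They are 10 of the 46983 genes in the count tables and 10 of the 37 genes annotated on the mitochondrial chromosome, which also holds 22 tRNA genes and 2 rRNA genes. RNA was sequenced from naïve CD4 T cells of male mice, in 3 control libraries (Rnmt fl/fl CD4cre -) and 3 Rnmt cKO libraries (Rnmt fl/fl CD4cre +). All mice therefore carried loxP sites around exon 3 of Rnmt on a C57B6/J background, and only the Rnmt cKO mice carried the Tg(Cd4-cre)1Cwi transgene, whose Cd4 regulatory sequence drives Cre in developing thymocytes, before CD4 T cells leave the thymus. The presence of Cre and the deletion of Rnmt cannot be told apart in this design. Cells were sorted by FACS from lymph nodes by TCRb, CD4 and CD62L, without CD44 and DAPI, and RNA was depleted of rRNA with Ribo-Zero Gold before library preparation.

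RNMT methylates the guanosine cap that RNA polymerase II transcripts receive in the nucleus. The mitochondrial genome is transcribed inside the organelle by its own polymerase, POLRMT, as long RNAs that span nearly the whole circle and are cut at the tRNAs into separate rRNAs, tRNAs and mRNAs, and these RNAs carry no m7G cap. Both strands are transcribed. All the protein genes except mt-Nd6 are read in the same direction as the rRNA genes, and mt-Nd6 lies on the opposite strand. The proteins are membrane subunits of the respiratory chain and of ATP synthase, assembled with subunits that are encoded in the nucleus and imported. Levels and differences below are relative to the other RNAs in the same library, so fewer mitochondrial transcripts per cell and fewer transcripts per mitochondrion cannot be told apart.

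The libraries held between 8873413 and 11277764 sense counts in genes. Rnmt was lower in the Rnmt cKO libraries, at 26.6 to 42.0 CPM (sense counts relative to the effective library size after TMM scaling) against 51.5 to 58.7 in the controls (log2 fold change -0.67, SE 0.20, adjusted p = 0.00035 by edgeR's exact test, n = 3 per group, where adjusted means Benjamini-Hochberg over all tested genes). The labels number the libraries without naming animals, so p-values measure the spread between these libraries. The summed level of 12 T cell marker genes was 6462 to 7183 CPM in the controls and 7003 to 8000 CPM in the Rnmt cKO libraries. B cell markers summed to 35.3 to 42.9 against 46.7 to 78.8 CPM and myeloid markers to 4.59 to 6.30 against 11.6 to 33.7 CPM, while the CD8 pair summed to 21.7 to 23.3 against 13.5 to 17.3 CPM, erythroid and platelet markers to 4.75 to 7.52 against 1.06 to 1.35 CPM, and NK markers to at most 0.76 CPM. Of those tested, 4 of 7 B cell and 3 of 4 myeloid markers were called higher, both CD8 markers and 2 of 2 erythroid markers lower, and the platelet genes Pf4 and Ppbp were at 0 throughout. The part of other cells in the mitochondrial values was not tested. Rnmt cKO library 3 stood apart from the other libraries of its group. The chi-square per degree of freedom over genes was 3.64 between Rnmt cKO libraries 1 and 2, and 22.1 and 22.9 between each of these and library 3. Control 1 also differed from the other controls, by 10.3 and 13.3, where controls 2 and 3 differed by 4.17. Uniquely mapped pairs outside any gene were 31.8% in Rnmt cKO library 3, 46.5% and 47.9% in the other Rnmt cKO libraries and 36.1% to 46.1% in the controls. Fold changes of the members are given with and without Rnmt cKO library 3.

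The first bases are shown for the 3 genes that carried most of the reads and for mt-Nd6, the gene on the opposite strand. Of these, mt-Nd1 opens with GTG in place of ATG, which mitochondrial ribosomes read as a start. The first 24 bases are printed 5′ to 3′ from the coding strand in the mm10 annotation, with the first codon in capitals.
mt-Nd1: GTGttctttattaatatcctaaca
mt-Co1: ATGttcattaatcgttgattattc
mt-Cytb: ATGacaaacatacgaaaaacacac
mt-Nd6: ATGaataattatatttttgtttta

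The 3′ ends differ too. The annotated mt-Nd1 gene ends in a full stop codon, whereas mt-Nd4, mt-Cytb and mt-Co3 have a length that is not a multiple of 3 and end in a lone T, which the poly(A) tail added in the organelle completes to TAA. The last 18 bases are shown with the annotated part of the stop codon in capitals.
mt-Nd1: gtaccaccatacataTAG
mt-Nd4: ttacaggcctgacaataT
mt-Cytb: tactaaaattatatccaT
mt-Co3: tttattgatgaggatctT

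Of the 10 members, 3 could not be measured in these counts. The complex IV gene mt-Co2 (ENSMUSG00000064354, chrM:7013-7696) encodes the subunit that takes up electrons from cytochrome c, and its sense counts were 1, 3 and 2 in the control libraries and 2, 1 and 4 in the Rnmt cKO libraries. The complex IV gene mt-Co3 (ENSMUSG00000064358, chrM:8607-9390) had 2, 3 and 2 such counts in control and 3, 2 and 2 in Rnmt cKO cells. The ATP synthase gene mt-Atp6 (ENSMUSG00000064357, chrM:7927-8607), which encodes part of the proton channel, held 0, 1 and 1 counts and 1, 1 and 0 counts. All but 1 of these values were at or below 3 counts, the upper limit that a count of 0 allows. The neighbour mt-Co1 held 63231 to 99054 counts in the same libraries. No fold change is given for these genes, and 7 of the 10 members passed the filter of more than 1 CPM in at least 3 libraries.

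STAR counts a read pair for a gene only when it maps to a single place, so a pair that lies wholly in sequence with an identical copy elsewhere enters no gene count. Each mitochondrial protein gene was therefore cut into all windows of 75 bases, the read length. The windows were searched, in the orientation of the gene, in the sequences of the annotated nuclear transcripts. An exact copy was found for 99.5% of the windows of mt-Co2, 99.5% of those of mt-Atp6 and 99.9% of those of mt-Co3. Their copies are the pseudogenes Gm28661 (chr1:24614885-24615565), Gm10925 (chr1:24613974-24614651) and Gm28437 (chr1:24613189-24613971), which lie side by side on the minus strand of chromosome 1 in a nuclear insertion of mitochondrial DNA and show no mismatch to mt-Co2, mt-Atp6 and mt-Co3. The sense counts of these copies were low in every library, at 21 to 41 for Gm28661, 15 to 21 for Gm10925 and 30 to 57 for Gm28437. The same insertion holds Gm28439 (chr1:24611535-24612410), which is identical to the first 876 bases of mt-Nd4, and 61.5% of the windows of mt-Nd4 had a copy. For mt-Co1 the share was 39.8%, from Gm29216 (chr1:24615706-24616197) and from the more diverged copy Gm13340 (chr2:22588103-22589647). It was 5.71% for mt-Nd2, 1.66% for mt-Nd5 and 0 for mt-Nd1, mt-Nd6 and mt-Cytb. The genome outside annotated transcripts and copies in the opposite orientation were not searched, so these shares are lower limits.

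The copies differ in how many bases set them apart from the mitochondrial gene, and this is shown for an identical, a near identical and 2 more diverged copies. In each pair the stretch of 30 bases is aligned without gaps, and bases that differ are in capitals. The mt-Co2 and Gm28661 stretches, from base 326 of each, are the same. The stretch from base 1063 of mt-Co1 holds the single difference found over the 483 aligned bases of Gm29216. Over their whole alignments Gm13340 differs from mt-Co1 at 37 bases and Gm11410 (chr4:80003989-80005131) differs from mt-Cytb at 81 bases.
mt-Co2: aatatactgactatgaagacctatgctttg
Gm28661: aatatactgactatgaagacctatgctttg
mt-Co1: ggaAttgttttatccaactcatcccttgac
Gm29216: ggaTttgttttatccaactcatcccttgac
mt-Co1: ctgagcgggaatagtGggtactgcactaag
Gm13340: ctgagcgggaatagtAggtactgcactaag
mt-Cytb: cactcattcattgacCtaccTgccccatcc
Gm11410: cactcattcattgacTtaccCgccccatcc

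**Figure D1:**
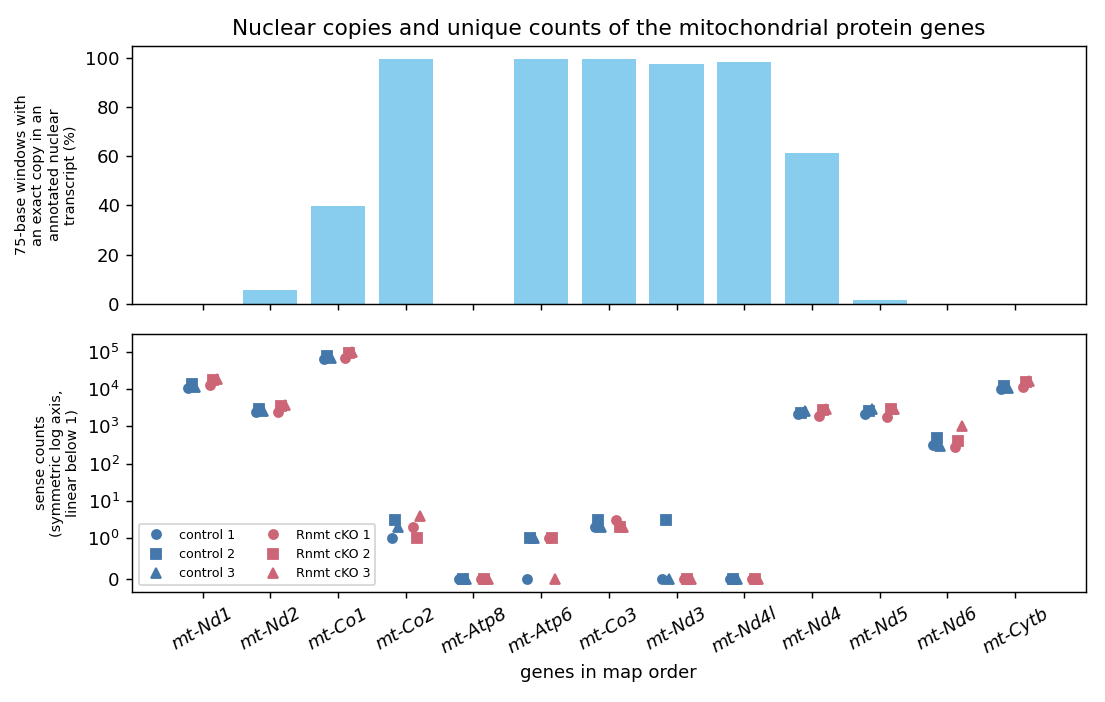
The upper panel gives, for the 13 mitochondrial protein genes in map order, the percent of 75-base windows with an exact copy in an annotated nuclear transcript, and the lower panel the sense counts in each library on a symmetric log axis that is linear below 1. The genes mt-Co2, mt-Atp6, mt-Co3, mt-Nd3 and mt-Nd4l, with 97.8% to 99.9% of windows copied, held 0 to 4 counts, and mt-Atp8 held 0 counts with no copied window found.

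The protein genes outside the 10 members gave no measurement either. The complex I genes mt-Nd3 and mt-Nd4l had copies of 97.8% and 98.7% of their windows, and held a total of 3 counts and 0 counts over the 6 libraries. No copy of mt-Atp8 was found among annotated transcripts in the orientation searched, and it also held 0 counts in all libraries. The cause of these 0 counts was not tested.

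Among the 7 measured members, levels per length (RPKM, that is CPM per kilobase of gene length) spanned from 76.0 to 4878 in the control libraries. The order in the controls was mt-Co1 at 4878 ± 99.1 RPKM (SD, n = 3), mt-Nd1 at 1368 ± 42.0, mt-Cytb at 1028 ± 20.2, mt-Nd2 at 277 ± 3.35, mt-Nd4 at 189 ± 20.0, mt-Nd5 at 154 ± 19.5 and mt-Nd6 at 76.0 ± 14.9 RPKM. The control values of mt-Nd4 and mt-Nd5 overlapped in RPKM, and those of the other neighbours in this order did not. The place of mt-Nd4 depends on the copied windows: per 1000 windows without a copy, mt-Nd4 stood at 518 ± 54.9 CPM, above mt-Nd2 at 316 ± 3.83 CPM, and mt-Co1 remained the highest at 8516 ± 173 CPM. A window stands for a single read, whereas a pair that lies only partly in copied sequence can still be counted. These values may therefore be too high for mt-Nd4 and mt-Co1. The order of the 7 genes by mean RPKM was the same in the Rnmt cKO group, from mt-Co1 at 5196 ± 504 to mt-Nd6 at 100.2 ± 67.5 RPKM, though in Rnmt cKO library 3 mt-Nd6 ranked above mt-Nd5. By RPKM the members made up 3.35%, 3.72% and 3.76% of the sum over all protein-coding genes in the controls and 3.94%, 4.32% and 4.26% in the Rnmt cKO libraries. This share was higher in all Rnmt cKO libraries than in any control (3.61 ± 0.23% against 4.17 ± 0.20%, exact two-sided permutation p = 0.1, the smallest that 3 against 3 allows), and it leaves out whatever mt-Co2, mt-Co3, mt-Atp6 and the copied parts of mt-Co1 and mt-Nd4 would have added. It also depends on the other genes in the total. The paper reports that ribosomal protein transcripts made up less of that total in Rnmt cKO cells, and their effect on the share was not tested. The summed CPM of the members overlapped between the groups (exact permutation p = 0.4).

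In the comparison of Rnmt cKO with control cells, none of the 7 measured members passed the test. By the edgeR exact test, 0 of 7 members were called lower, where 6.84% of the 12336 genes tested were, and 0 of 7 were called higher, where 8% were. The quasi-likelihood test of edgeR and DESeq2 also called 0 in either direction, and 1 member, mt-Nd5, had an unadjusted p under 0.05 in the exact test. The median log2 fold change of the 7 members was 0.09, with a range from -0.28 to 0.40, and the median over all tested genes was 0.01.

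Among the complex I genes, mt-Nd1 and mt-Nd5 lay at opposite ends of the well-covered members. The mt-Nd1 gene (chrM:2751-3707) encodes a core subunit next to the quinone site and stood at 1288, 1356 and 1285 CPM in the controls and at 1357, 1449 and 1724 CPM in the Rnmt cKO libraries. All Rnmt cKO values were above the controls, with 1356 and 1357 CPM as the nearest pair, and no other member separated the groups upward, where 16.6% of all tested genes did and 14.9% separated them downward. Its log2 fold change was 0.21 (SE 0.11, adjusted p = 0.27, edgeR exact test), and 0.082 (adjusted p = 0.56) without Rnmt cKO library 3.

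The mt-Nd5 gene (chrM:11742-13565), the longest of the protein genes, encodes one of the proton-pumping antiporter-like subunits. It stood at 255, 265 and 321 CPM in the controls and at 193, 240 and 263 CPM in the Rnmt cKO libraries. The groups overlapped only through Rnmt cKO library 3, which lay between control 1 and control 2. The log2 fold change was -0.28 (SE 0.17, adjusted p = 0.18, edgeR exact test), and without Rnmt cKO library 3 it was -0.39 with an adjusted p of 0.0064. The value was smaller without Rnmt cKO library 1 (-0.16, adjusted p = 0.56) or without control 3 (-0.17, adjusted p = 0.58, edgeR exact test).

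The mt-Nd4 gene (chrM:10167-11544), which encodes a related antiporter-like subunit, stood at 257, 234 and 289 CPM in the controls and at 206, 232 and 267 CPM in the Rnmt cKO libraries. The groups overlapped, with Rnmt cKO library 3 above 2 of the controls. Its log2 fold change was -0.15 (SE 0.14, adjusted p = 0.51, edgeR exact test), and -0.27 with an adjusted p of 0.043 without that library. It was -0.062 without Rnmt cKO library 1 and -0.065 without control 3, each with an adjusted p of 0.87. Without Rnmt cKO library 3, mt-Nd4 and mt-Nd5 were thus called lower, 2 of 7 members, where 10.5% of all genes tested were called lower.

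The mt-Nd2 gene (chrM:3914-4951) encodes the remaining antiporter-like subunit among the members. It stood at 290, 283 and 288 CPM in the controls and at 263, 289 and 327 CPM in the Rnmt cKO libraries, which lay on both sides of the controls (log2 fold change 0.03, SE 0.09, adjusted p = 0.93, edgeR exact test). Without Rnmt cKO library 3 the value was -0.074 (adjusted p = 0.59).

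The mt-Nd6 gene (chrM:13552-14070), whose product belongs to the membrane arm of complex I, is the sole member on the minus strand and was the least expressed. Its counts were 310, 483 and 305 in control cells and 271, 416 and 1030 in Rnmt cKO cells, which gave 36.4, 48.2 and 33.7 CPM against 28.6, 35.1 and 92.3 CPM. The single high value was that of Rnmt cKO library 3, and the other Rnmt cKO libraries lay within or below the control range. The log2 fold change was 0.40 (SE 0.54, adjusted p = 0.54, edgeR exact test) and turned to -0.32 (adjusted p = 0.13) without that library. Summed over the 5 complex I members, levels were 2127, 2187 and 2217 CPM in the controls and 2048, 2244 and 2673 CPM in the Rnmt cKO libraries, with overlapping groups (exact permutation p = 0.7). The ratio of the means was 1.07, and 0.986 without Rnmt cKO library 3.

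The complex III gene mt-Cytb (chrM:14145-15288) encodes cytochrome b, the only mitochondrially encoded subunit of that complex. It stood at 1159, 1202 and 1166 CPM in the controls and at 1189, 1311 and 1489 CPM in the Rnmt cKO libraries. The groups overlapped, since Rnmt cKO library 1 lay below control 2 and above both other controls. The log2 fold change was 0.18 (SE 0.10, adjusted p = 0.34, edgeR exact test), and 0.071 (adjusted p = 0.63) without Rnmt cKO library 3.

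The complex IV gene mt-Co1 (chrM:5328-6872) encodes the catalytic subunit of cytochrome c oxidase and was the most abundant of the 7 measured members. It stood at 7434, 7712 and 7463 CPM in the controls and at 7350, 7854 and 8878 CPM in the Rnmt cKO libraries. The lowest and the highest values of the set were both from Rnmt cKO libraries. The log2 fold change was 0.09 (SE 0.08, adjusted p = 0.71, edgeR exact test), and it was -0.0050 without Rnmt cKO library 3.

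**Figure D2:**
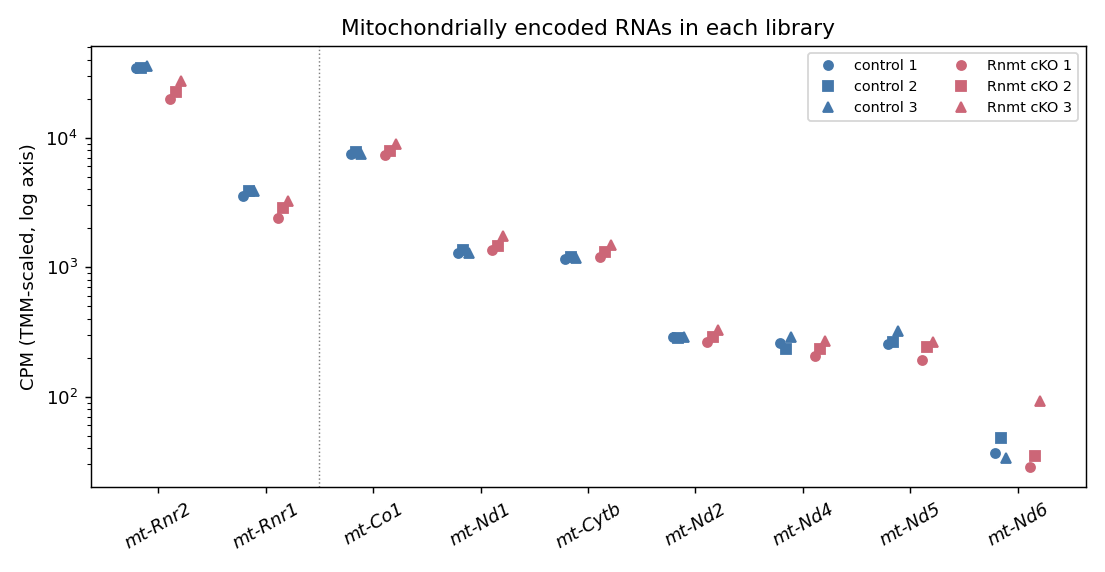
TMM-scaled CPM on a log axis of the 7 measured members and the 2 rRNAs in each of the 6 libraries, with controls in blue, Rnmt cKO in red and the symbol giving the replicate number. Both rRNAs lie lower in every Rnmt cKO library, whereas the protein genes overlap or, for mt-Nd1, barely separate, and mt-Nd6 is high in Rnmt cKO library 3 alone.

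Within the Rnmt cKO group the 7 members ranked the libraries alike: library 3 had the highest CPM of its group for all 7 of them and library 1 the lowest. The summed level of the 10 members was 10720, 11102 and 10847 CPM in the controls and 10588, 11409 and 13040 CPM in the Rnmt cKO libraries. The Rnmt cKO libraries lay on both sides of the controls, with means of 10889 ± 195 and 11679 ± 1248 CPM (exact permutation p = 0.4). Without Rnmt cKO library 3 the ratio of the means was 1.01, against 1.07 with it. As a plain percent of sense counts in genes, without the TMM factors, the members took 0.98%, 1.09% and 1.06% in the controls and 1.13%, 1.22% and 1.29% in the Rnmt cKO libraries. On that scale the groups were apart (exact permutation p = 0.1), so whether the groups overlap depends on the scaling. Scaled by library size only, mt-Nd1 and mt-Cytb were called higher, 2 of 7 members, where 15.7% of all genes were called higher and the median of all genes shifted from 0.01 to 0.14. The same pair was called higher with the no-gene share of each library as a covariate, where 13.7% of all genes were.

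The 2 mitochondrial rRNAs, cut from the same precursor as the mRNAs, were lower in the Rnmt cKO libraries. Ribo-Zero Gold is designed to remove mitochondrial rRNA too, so these counts are what depletion left, and differences in its yield between libraries cannot be told apart from differences in the cells. The 12S rRNA gene mt-Rnr1 stood at 3528, 3899 and 3883 CPM in the controls and at 2398, 2862 and 3221 CPM in the Rnmt cKO libraries (log2 fold change -0.42, SE 0.13, adjusted p = 0.012, edgeR exact test). The 16S rRNA gene mt-Rnr2 stood at 34745, 34630 and 35710 CPM in the controls and at 19953, 22676 and 27221 CPM in the Rnmt cKO libraries (log2 fold change -0.59, SE 0.13, adjusted p = 0.00025, edgeR exact test). Neither gene overlapped between the groups. The mt-Rnr1 call was lost without control 2 (adjusted p = 0.11), control 3 (0.080), Rnmt cKO library 1 (0.14) or library 2 (0.064, edgeR exact test). It held without control 1 (adjusted p = 0.021) or Rnmt cKO library 3 (3.9e-06, edgeR exact test). The mt-Rnr1 call was also lost with library size only (adjusted p = 0.074, edgeR exact test). In the quasi-likelihood test of edgeR its adjusted p was 0.073, and 0.17 with the replicate number as a block. The mt-Rnr2 call held with each library left out and was lost in the quasi-likelihood test of edgeR (adjusted p = 0.060, and 0.21 with the replicate number as a block).

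Set against these rRNAs, the members stood higher in every Rnmt cKO library. There were 28.0, 28.8 and 27.4 member reads per 100 rRNA reads in the controls and 47.4, 44.7 and 42.8 in the Rnmt cKO libraries. The ratio of the means was 1.60 and no control reached a Rnmt cKO value (exact permutation p = 0.1). The ratio does not depend on the scaling between libraries and was 1.64 without Rnmt cKO library 3. It does depend on how much rRNA the depletion left in each library. By summed CPM the ratio of the means was 0.67 for the rRNAs and 1.07 for the members.

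**Figure D3:**
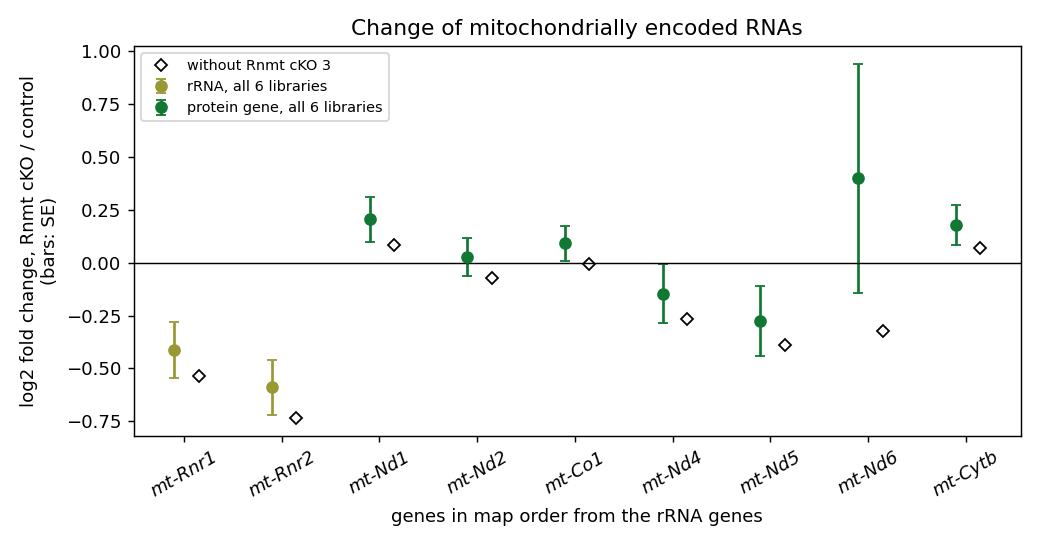
Log2 fold change of Rnmt cKO over control for the rRNAs and the 7 measured members in map order, with SE bars (n = 3 per group), and as open diamonds the same value without Rnmt cKO library 3. The rRNAs lie at -0.42 and -0.59, the members between -0.28 and 0.40, and leaving out that library lowers the value of every gene shown.

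The proportions among the members lay apart in the groups for 5 of 7 genes, by amounts that were small against the total. Of all member reads, mt-Co1 took 69.3%, 69.5% and 68.8% in the controls and 69.4%, 68.8% and 68.1% in the Rnmt cKO libraries, with overlapping groups. The share of mt-Nd1 was 12.0%, 12.2% and 11.8% in the controls and 12.8%, 12.7% and 13.2% in the Rnmt cKO libraries. The share of mt-Cytb was 10.8%, 10.8% and 10.8% against 11.2%, 11.5% and 11.4%. Both of these were higher in every Rnmt cKO library.

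Among the complex I genes, 3 took a smaller share in every Rnmt cKO library. The share of mt-Nd5 was 2.38%, 2.39% and 2.96% in the controls and 1.82%, 2.10% and 2.01% in the Rnmt cKO libraries, that of mt-Nd4 was 2.40%, 2.11% and 2.66% against 1.95%, 2.03% and 2.05%, and that of mt-Nd2 was 2.71%, 2.55% and 2.66% against 2.49%, 2.53% and 2.5%. The share of mt-Nd6 overlapped between the groups, from 0.31% to 0.43% in the controls and from 0.27% to 0.71% in the Rnmt cKO libraries. Of the 7 shares, 2 were thus higher and 3 lower without overlap, each with an exact permutation p of 0.1 and 0.14 after Benjamini-Hochberg adjustment over the 7 tests, the smallest the design allows for 5 of them. Shares of a common total are not independent of each other, and all genes give no background for them. By level, 14.9% of all tested genes separated the groups downward and 16.6% upward.

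Ratios of these genes restate the shares without the total, and are given as a description since the genes were picked after their shares had been seen. There were 19.8, 19.6 and 25.0 mt-Nd5 reads per 100 mt-Nd1 reads in the controls and 14.2, 16.5 and 15.2 in the Rnmt cKO libraries. For mt-Nd4 the ratio was 20.0, 17.3 and 22.5 per 100 mt-Nd1 reads against 15.2, 16 and 15.5. Both ratios were lower in all Rnmt cKO libraries.

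Because the count tables hold each strand separately, antisense reads at the members could be measured. At genes of the heavy-strand transcript these reads have the orientation of mt-Nd6. They were rare at the most abundant genes, with 0.48 ± 0.08% of reads at mt-Co1, 1.55 ± 0.28% at mt-Nd1 and 3.78 ± 0.48% at mt-Cytb in the controls (SD, n = 3). They made up 8.84 ± 1.15% at mt-Nd4, 14.1 ± 3.19% at mt-Nd2 and 25.9 ± 2.39% at mt-Nd5. At mt-Nd6 itself 56.8 ± 6.58% of reads in the controls had the orientation of the neighbours mt-Nd5 and mt-Cytb. The last bases of mt-Nd5 and mt-Nd6 overlap on opposite strands, at chrM:13552-13565.

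These antisense shares did not separate the groups at any of the 7 members (exact permutation p from 0.3 to 0.9, 0.875 to 0.9 after Benjamini-Hochberg adjustment over the 7). Rnmt cKO library 3 stood above every other library at the heavy-strand members. At mt-Nd5 the antisense share was 25.7%, 28.4% and 23.6% in the controls and 26.3%, 26.5% and 40.1% in the Rnmt cKO libraries. At mt-Nd2 it was 14.4%, 17.1% and 10.8% against 10.6%, 11.1% and 23.3%. Over the 13 protein genes, reads with the orientation of mt-Nd6 were 2.85%, 2.99% and 2.51% of the reads in the controls and 2.20%, 2.34% and 4.31% in the Rnmt cKO libraries.

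Without Rnmt cKO library 3 this share was lower in the Rnmt cKO libraries than in any control, with a mean of 2.27% against 2.79%, a comparison of 2 against 3 libraries. The same library had the lowest antisense share over nuclear genes, 4.60% against 4.93% to 5.14% in the other 5. It also held the most tRNA counts, 281 over the 22 tRNA genes against 77 to 118 in the others. Among these, mt-Tq and mt-Tp, tRNA genes that lie on the strand of mt-Nd6, had 177 and 63 counts there against 37 to 72 and 12 to 24 in the others (log2 fold changes 0.53 and 0.57, adjusted p = 0.49 and 0.57, edgeR exact test). Library 3 of the Rnmt cKO group thus held more RNA of the mt-Nd6 orientation on the mitochondrial genome, and its origin was not tested.

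**Figure D4:**
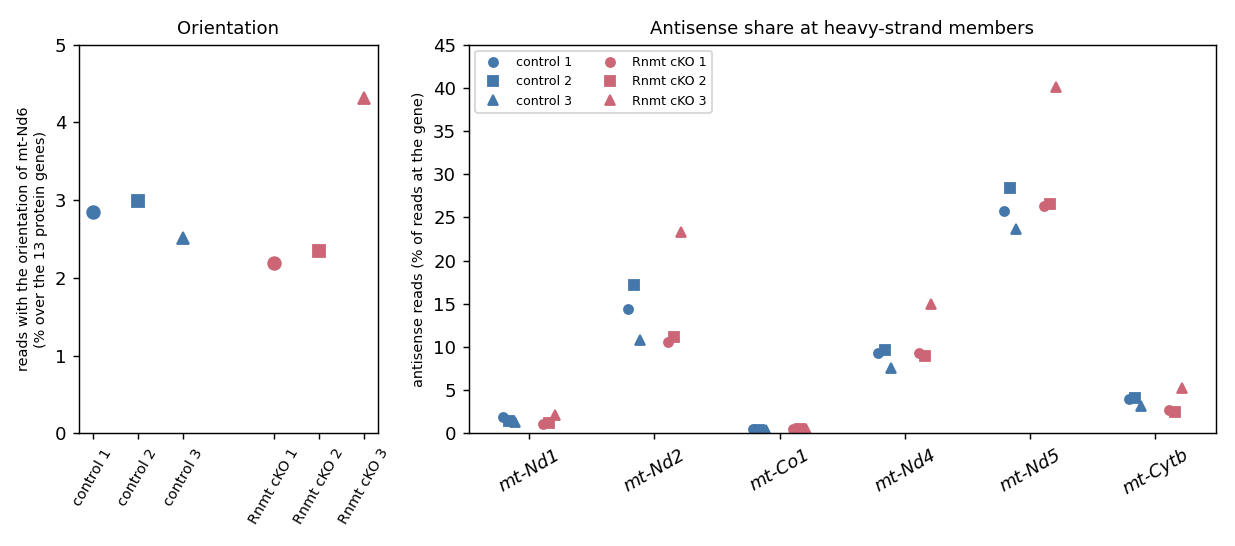
Left, percent of reads over the 13 mitochondrial protein genes with the orientation of mt-Nd6 in each library; right, antisense reads as percent of the reads at 6 heavy-strand members, with controls in blue, Rnmt cKO in red and the symbol giving the replicate number. Rnmt cKO library 3 is the highest library in the left panel, at 4.31%, and at each gene on the right.

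The nuclear genes that make and maintain mitochondrial RNA were examined beside the members in lists of their known roles. Of 55 such genes 54 were tested, 3 were called lower (5.56%, against 6.84% of all genes) and 1 higher (1.85%, against 8%), and their median log2 fold change was 0.02. The lower calls numbered 1 without control 2, Rnmt cKO library 1 or Rnmt cKO library 2, and no share over all genes is given for these fits. Without Rnmt cKO library 3 the lower calls numbered 6, where 10.5% of all genes tested were called lower. None of the 8 transcription genes was called, and none had an unadjusted p under 0.05 in the exact test. The polymerase gene Polrmt stood at a log2 fold change of -0.20 (SE 0.11, adjusted p = 0.32) and Tfam, whose product packages the mitochondrial genome and helps to start transcription, at 0.07 (SE 0.08, adjusted p = 0.74, edgeR exact test).

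Of 7 replication genes 1 was lower, Top1mt, the mitochondrial topoisomerase, which fell from 11.8 ± 1.5 to 7.43 ± 0.59 CPM (log2 fold change -0.67, adjusted p = 0.0051, edgeR exact test). This call was lost without control 2 (adjusted p = 0.093) or without Rnmt cKO library 2 (0.066). Of 20 genes for RNA processing and decay 1 was lower, Fastkd5, whose product is needed to process mitochondrial mRNA ends that no tRNA flanks, from 9.42 ± 1.49 to 6.15 ± 1.13 CPM (log2 fold change -0.61, adjusted p = 0.045). The Fastkd5 call was kept in 5 of the 15 alternative settings that tested it. The gene for LRPPRC, which stabilizes mitochondrial mRNAs, stood at a log2 fold change of -0.03 (SE 0.03, adjusted p = 0.91, edgeR exact test).

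Of 12 genes for mitochondrial translation 1 was lower, Tfb1m, which encodes the methyltransferase that modifies the 12S rRNA, the product of mt-Rnr1. It fell from 10.1 ± 0.51 to 6.13 ± 1.12 CPM (log2 fold change -0.71, SE 0.15, adjusted p = 0.0052, edgeR exact test), and the call was lost without control 2 (adjusted p = 0.072) or Rnmt cKO library 1 (0.056). Of 8 regulators of mitochondrial biogenesis 7 were tested and 1 was higher, Gabpa, a subunit of the transcription factor also called NRF2, from 107 ± 8.73 to 129 ± 4.99 CPM (log2 fold change 0.26, adjusted p = 0.047). The Gabpa call was kept in 4 of 16 alternative settings.

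The nuclear partners of the members in the respiratory chain ranged from a log2 fold change of -0.76 to 0.39. All 78 listed nuclear genes of complexes I to V were tested. Of these, 4 were called lower and none higher, where 8% of all genes tested were called higher. The median log2 fold change of the 78 was -0.04 beside 0.09 for the 7 members. In complex I, with 36 nuclear genes, Ndufb4 fell from 20.1 ± 3.14 to 11.9 ± 1.70 CPM (log2 fold change -0.76, adjusted p = 0.00031, edgeR exact test) and Ndufa6 from 62.9 ± 7.75 to 44.0 ± 5.85 CPM (log2 fold change -0.52, adjusted p = 0.0014), both accessory subunits. In complex II, which has no mitochondrially encoded subunit, Sdhb, the iron-sulfur subunit, fell from 78.9 ± 8.39 to 54.1 ± 7.06 CPM (log2 fold change -0.54, adjusted p = 0.00023). In complex III, the partner of mt-Cytb that fell was Uqcrh, the hinge protein, from 151 ± 20.7 to 110 ± 19.6 CPM (log2 fold change -0.45, adjusted p = 0.012, edgeR exact test), a call lost without control 1 (adjusted p = 0.13), Rnmt cKO library 1 (0.11) or library 2 (0.11).

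None of the 11 nuclear genes of complex IV and none of the 18 of complex V was called, and 1 in each had an unadjusted p under 0.05 in the exact test. Their median log2 fold changes were -0.11 and -0.02, and that of mt-Co1 was 0.09. The 4 lower genes are 5.13% of the 78, near the 6.84% of all genes called lower. Without Rnmt cKO library 3 the lower calls among the 78 numbered 23, where 10.5% of all genes were called lower. Without any other single library the calls numbered 3 to 5, and no share over all genes is given for those fits.

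**Figure D5:**
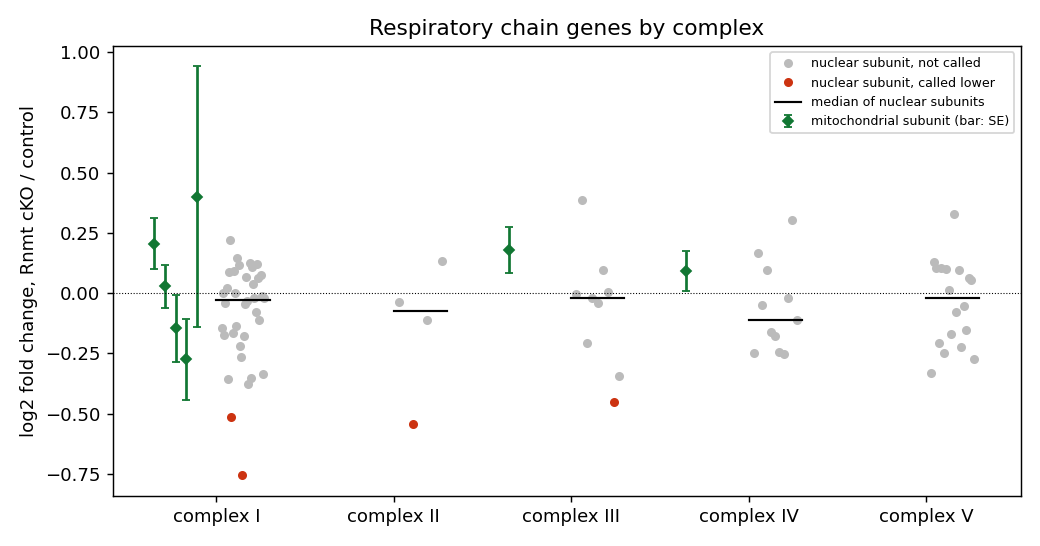
Log2 fold change of Rnmt cKO over control for the measured mitochondrial subunits (green diamonds with SE bars, n = 3 per group, in the order mt-Nd1, mt-Nd2, mt-Nd4, mt-Nd5 and mt-Nd6 for complex I) beside the nuclear genes of each complex (grey, or red where called lower; the line is their median). The members lie between -0.28 and 0.40, and the 4 nuclear genes called lower lie between -0.45 and -0.76.

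The nuclear genes whose level followed the summed members most closely over the 6 libraries were Dkc1, Spty2d1 and Arl1, out of 9695 genes with a mean of at least 5 CPM. Their Pearson correlations were 0.992, 0.992 and 0.989 on the log2 scale over 6 libraries, which share the scaling and the same high library, and they are given as a description. Their log2 fold changes were 0.07, 0.14 and 0.14, and none passed the test (adjusted p = 0.76, 0.49 and 0.57, edgeR exact test).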

How the data were processed

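The deposited counts were made by the authors with STAR 2.5.2b from 75-base paired-end reads on mm10 with the GENCODE vM12 basic annotation: uniquely mapped pairs per gene, unstranded and for each strand, without normalization. The authors also deposited a table with a scaled signal per library, fold changes and p-values for 11221 genes. Its signal equals the sense counts divided by 1 constant per library in 100% of genes (within 0.01%), and it was used for that check and for gene symbols. Sense counts were used here, and the lines for unmapped, multimapping, ambiguous and no-gene pairs (31.8% to 47.9% of unique pairs) stayed out of library sizes and tests. Total sense counts were 8873413 to 11277764 per library.

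Genes over 1 CPM in at least 3 libraries (12336) were tested with the exact test of edgeR 4.0.16 (R 4.3.3), with TMM factors, tagwise dispersions and a Benjamini-Hochberg threshold of 0.05. SEs come from log2 CPM with a prior count of 2. Antisense shares used the opposite-strand counts. Sums, shares and ratios were compared by exact two-sided permutation over libraries. Coordinates, lengths and sequences came from GENCODE vM21 (mm10). Nuclear copies were searched with blastn 2.17.0 at 90% identity and as exact 75-base windows in 141730 nuclear transcripts, in the orientation of the gene only. The test was checked on simulated counts with a dispersion of 0.02 and changes of log2 size 1 and 2. It recovered 81% of the changed genes at size 1 and 100% at size 2, and called 10 unchanged genes. Changes as small as those of the members were not simulated.

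All 10 members and the other mitochondrial genes are named, with at most 4 called genes per list, by smallest p, and the 3 nuclear genes with the highest correlation. Polrmt, Tfam and Lrpprc were named after their values had been seen. The members and lists were chosen with earlier results of these data known. Alternatives changed the test (quasi-likelihood, DESeq2 1.42.0), replicate block, covariate, scaling, filter, strand and libraries.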

Additional observations from a re-analysis of the deposited data

How the results depend on the processing

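None of the 7 measured members was called under the quasi-likelihood test, DESeq2, its size factors, nuclear-only scaling, both other filters or unstranded counts. Without Rnmt cKO library 3, 2 were called lower (range 0 to 2 over the libraries left out). With library size only 2 were called higher, mt-Nd1 (log2 fold change 0.32, adjusted p = 0.022, edgeR exact test) and mt-Cytb (0.30, 0.034). With the no-gene share as a covariate in the edgeR quasi-likelihood test the same pair was called higher (0.22, adjusted p = 0.015, and 0.19, 0.032), 2 of 7 where 13.7% of all genes were. The summed members stood at a log2 ratio of 0.10, and at 0.22 with library size only. The sign turned for mt-Nd6 with unstranded counts (-0.11), and with libraries left out mt-Nd6 ranged from -0.32 to 0.69, mt-Nd2 from -0.074 to 0.098 and mt-Co1 from -0.0050 to 0.15, each lowest without Rnmt cKO library 3.

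Among the machinery genes the 3 lower calls became 1 at more than 10 CPM, where 47 genes were tested. Tfb1m and Fastkd5 did not pass that filter and were not tested there. The lower calls became 6 with the covariate and 1 to 6 with libraries left out. The single higher call became 0 in both quasi-likelihood fits, DESeq2, its size factors, no filter and unstranded counts. It became 4 with library size only, 4 with the covariate and 0 to 1 with libraries left out. Among the nuclear respiratory genes the 4 lower calls became 12 with the covariate and 3 to 23 with libraries left out, and the higher calls, 0 in the main test, became 3 with library size only, 4 with the covariate and 0 to 1 with libraries left out. Over all genes, 15.7% were called higher with library size only, 13.7% higher with the covariate and 10.5% lower without Rnmt cKO library 3. The other counts, the lower calls with the covariate among them, have no share over all genes beside them. The cause was not tested.

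Same-numbered libraries of the groups deviated with correlations of -0.21, -0.02 and -0.35, and 0 of 6 libraries correlated best with their own number. The deviations thus showed no pairing by number. With 3 libraries per group they cannot exclude a shared litter or day, on which the labels are silent. With the replicate number as a block, the machinery held 0 lower and 0 higher calls, the nuclear respiratory genes 1 lower call and the members 0, with mt-Nd5 at -0.28. Counting depth limits mt-Nd6 most among the measured members, and no depth reached here measures mt-Co2, mt-Co3 and mt-Atp6.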
